A study of Mus musculus with 6 samples.

Results

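The genes described here are 10 classical targets of the hypoxia-inducible factors (HIF) that do not belong to glycolysis: Adm, Vegfa, Ankrd37, Ndrg1, Ddit4, Car12, Car9, Ak4, Higd1a and Bhlhe40. They were matched by gene symbol among the 54838 genes of the count files, and all 10 were found. They were picked because some of them were higher, some near level and some lower after treatment with GSK126, so their differences between the groups are given as a description and not as evidence. RNA sequencing was done on B16F10 cells, an established pigmented mouse melanoma line, in 2 groups of 3 samples: cells given the vehicle DMSO, and cells given GSK126 at 10 µM. GSK126 inhibits EZH2, the enzyme of Polycomb repressive complex PRC2 that places repressive methyl marks on histone H3. Per the labels' protocols the line was kept in DMEM or RPMI-1640 medium with 10% serum at 5% CO2. The labels give neither the length of treatment nor any low-oxygen group, and nothing in them tells separate cultures from repeat libraries. The p-values below therefore rest on a spread that could be wholly technical.

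HIF is a pair of proteins, an oxygen-regulated alpha subunit (Hif1a or Epas1) and the stable partner Arnt. When oxygen is plentiful, prolyl hydroxylases of the Egln family mark the alpha subunit, the Vhl protein binds it and it is degraded. When oxygen is short, or when this turnover fails, HIF accumulates and binds the short core ACGTG or GCGTG of hypoxia response elements. Its targets serve different ends: secreted vessel-acting peptides (Adm, Vegfa), pH control (Car9, Car12), mitochondrial and energy balance (Ak4, Higd1a), growth and stress control (Ddit4, Ndrg1) and transcription (Bhlhe40). In melanoma cells HIF is known to be active to some degree even in normal air. Many of these targets also answer to other factors: Ddit4 and Vegfa, for example, are also targets of ATF4, the transcription factor of the integrated stress response.

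The promoters of the genes were examined first. The genes were picked as known HIF targets, and HIF binds the motifs searched, so motif content is tied to the choice of genes. RefSeq windows (GRCm38.p6) from 250 bases before to 50 bases after the transcription start were matched for 8 of the 10, and Ndrg1 and Bhlhe40 were not analysed here for motifs. Where a gene had several windows, the window nearest the 5′ end of the gene in the count files was taken. ACGTG and GCGTG were searched on both strands. At least 1 match was present in 6 of the 8 windows (75.0%), against 47.6% of 20502 genes of the files with a window and 64.8% of the 9579 tested ones. ACGTG itself was in 4 of the 8 (50.0%), against 26.5% of tested genes, and GCGTG in 5 of the 8 (62.5%), against 53.1%. The palindrome CACGTG, the E-box that contains ACGTG and that Bhlhe40 binds, was in none of the 8 windows and in 10.4% of those of tested genes. These shares describe 8 windows and carry no test. The stretches that follow end at the last base before the start, read 5′ to 3′ on the gene's strand, with the matches in capitals (CACGT and CACGC are ACGTG and GCGTG on the other strand). They are shown because genes with positive (Adm, Higd1a, Ankrd37, Ddit4), near-zero (Car9) and negative (Ak4) log2 fold changes carry at least 1 of the cores, while Car12, also negative, has no match.
Adm, chr7:110627557-110627656, plus strand: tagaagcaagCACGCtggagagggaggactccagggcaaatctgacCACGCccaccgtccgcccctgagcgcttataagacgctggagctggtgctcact
Higd1a, chr9:121857797-121857896, minus strand: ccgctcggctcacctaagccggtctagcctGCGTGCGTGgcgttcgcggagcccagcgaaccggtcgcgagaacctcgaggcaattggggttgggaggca
Ankrd37, chr8:45999851-46000100, minus strand: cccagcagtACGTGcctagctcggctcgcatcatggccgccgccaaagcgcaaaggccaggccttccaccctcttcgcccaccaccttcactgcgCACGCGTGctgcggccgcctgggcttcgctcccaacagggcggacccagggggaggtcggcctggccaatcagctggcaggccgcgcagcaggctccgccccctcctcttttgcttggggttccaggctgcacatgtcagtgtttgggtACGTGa
Ddit4, chr10:59951771-59952020, minus strand: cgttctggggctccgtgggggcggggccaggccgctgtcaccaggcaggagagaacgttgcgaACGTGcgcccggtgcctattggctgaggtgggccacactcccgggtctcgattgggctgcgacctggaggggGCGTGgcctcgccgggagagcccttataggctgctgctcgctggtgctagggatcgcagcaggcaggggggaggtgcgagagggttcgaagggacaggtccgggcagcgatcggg
Car9, chr4:43506926-43507025, plus strand: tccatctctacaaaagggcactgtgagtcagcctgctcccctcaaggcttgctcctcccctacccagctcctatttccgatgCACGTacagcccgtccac
Ak4, chr4:101419189-101419288, plus strand: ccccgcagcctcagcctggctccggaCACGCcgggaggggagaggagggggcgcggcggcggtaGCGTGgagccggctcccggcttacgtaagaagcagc
Car12, chr9:66713436-66713685, plus strand: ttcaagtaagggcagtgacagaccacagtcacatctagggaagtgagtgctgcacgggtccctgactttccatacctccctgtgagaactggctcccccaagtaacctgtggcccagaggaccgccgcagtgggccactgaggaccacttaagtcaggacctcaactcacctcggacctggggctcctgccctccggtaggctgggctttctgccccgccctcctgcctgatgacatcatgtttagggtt

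Adm has 2 GCGTG matches, at 90 and 54 bases before the start. Higd1a has 2 overlapping GCGTG matches, at 70 and 66 bases before the start, and an ACGTG match on the other strand that begins 43 bases after the start. Ankrd37 has 4 matches, the most among these windows, and its ACGTG nearest the start begins 6 bases before it. The start of this window lies 5857 bases downstream of the 5′ end of Ankrd37 in the count files. For Higd1a that distance is 566 bases. Ddit4 has an ACGTG 187 and a GCGTG 115 bases before the start. The single ACGTG match of Car9 lies on the other strand, with its outer base 18 bases before the start. Ak4 has GCGTG matches at 74 and 36 bases before the start. Its window 414 bases downstream, at another annotated start, holds 1 CACGTG palindrome, which reads as ACGTG on both strands. The windows of Vegfa and Car12 at the starts used hold no match, and a second Vegfa window 7214 bases downstream holds 1 of each core. A match is a run of letters and not a bound site, and no match says nothing about elements farther away. The windows were GC-rich at a median of 63.2%, against 61.3% over tested genes.

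**Figure D1:**
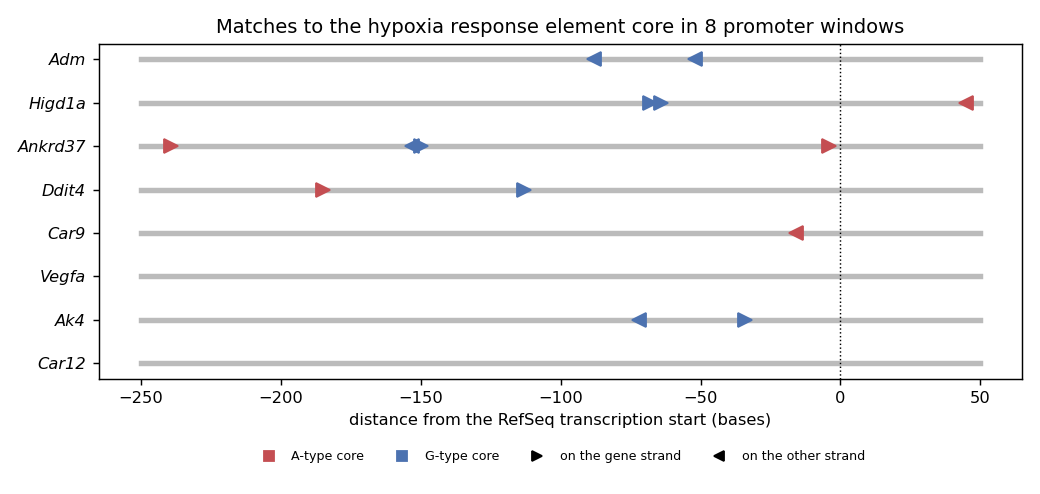
Position of the matches in the 8 promoter windows, with the genes ordered from the most positive to the most negative log2 fold change. The x axis is the distance in bases from the RefSeq start, grey lines are the windows, red and blue triangles are ACGTG and GCGTG matches, and the triangles point along the strand that reads the core. Matches are seen in 6 windows, and Vegfa and Car12 have none.

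The libraries held 13594939 to 14713373 counts, and 13601 genes had enough reads to be tested. The cells carried the markers of their label: all 7 melanoma markers were tested, with 288402 to 307133 reads in sum for each DMSO library and 330453 to 343405 for each GSK126 library. Of the 6 endothelial markers 4 (Cdh5, Kdr, Tek and Emcn) had 0 reads in every library, which allows up to 3 reads in each, and the sum of the list was 44 to 48 reads with DMSO and 82 to 106 with GSK126. Most of those reads came from Vwf, with 119 over the DMSO and 261 over the GSK126 libraries. Fibroblast markers summed to 210 to 242 and 278 to 289 reads, epithelial markers to 25 to 30 and 6 to 22, and leukocyte markers to 26 to 47 and 46 to 61. Most of the fibroblast reads came from Pdgfrb, with 198, 186 and 194 in the DMSO and 248, 235 and 254 in the GSK126 replicates. The defining leukocyte gene Ptprc had 14 reads in GSK126 replicate 3 and 0 in the other 5 libraries. That replicate also stood apart on principal component 2, which held 18.7% of the variance, at 17.27 against -10.67 and -11.6 for the other GSK126 samples. The part of these differences in the results was not tested, and values without GSK126 replicate 3 are given where they matter. RNA was taken from whole cultures, so fewer cells with a transcript and less of it in each cell cannot be told apart.

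The 10 genes spread over a wide range of change. On the log2 scale of the edgeR fit they ran from 1.26 for Adm to -2.04 for Car12, with a median of 0.34, while the median of all tested genes was -0.00. With GSK126 7 of them had a positive and 3 a negative value. All 10 passed the filter on low counts. By the edgeR quasi-likelihood test with Benjamini-Hochberg adjustment over all genes, 3 were higher and 2 lower, and 5 did not pass. Over all tested genes 11.1% passed, 5.87% higher and 5.18% lower. The samples of the groups did not overlap in 6 of the 10, which is the case for 34.4% of all tested genes. Since the genes were picked on this contrast, nothing is read from these counts.

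**Figure D2:**
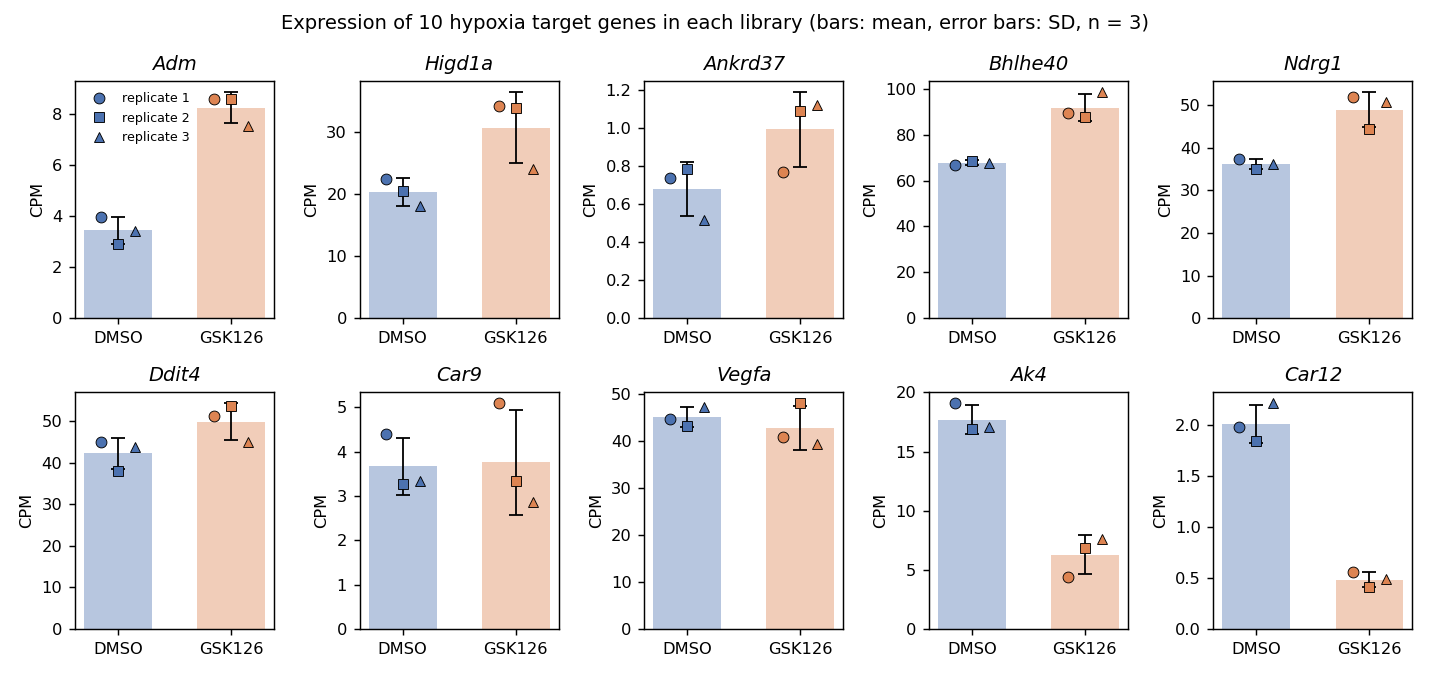
CPM (reads scaled to library size) of each gene in every library. Bars are means, error bars the SD (n = 3), symbols the replicates, and each panel has its own y axis from 0. Adm, Higd1a, Bhlhe40 and Ndrg1 have every GSK126 sample above every DMSO sample, Ak4 and Car12 have every GSK126 sample below, and the other 4 overlap.

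**Figure D3:**
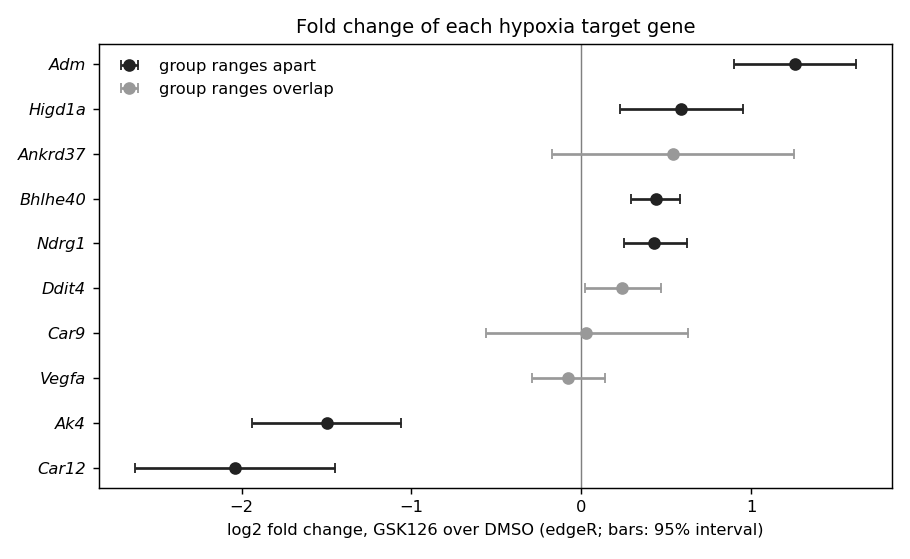
Log2 fold change of each gene, GSK126 over DMSO, with its 95% interval from the edgeR fit. Adm lies at 1.26 and Car12 at -2.04, and the intervals of Ankrd37, Car9 and Vegfa include 0. The intervals are not adjusted over genes. Ddit4 and Higd1a, whose intervals exclude 0, did not pass the adjusted test.

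Of the secreted peptides, Adm was the gene of the 10 with the largest rise. Adm (GRCm38 chromosome 7, 110627661 to 110629820, plus strand) encodes adrenomedullin, a peptide that widens vessels and supports their growth. In CPM, reads scaled to library size, it stood at 3.97, 2.92 and 3.41 in DMSO replicates 1 to 3 and at 8.59, 8.57 and 7.53 in the GSK126 replicates. Every GSK126 sample was above every DMSO sample, with little spread inside the treated group. The fold change was 2.40 (log2 1.26, SE 0.15), and 0.596% of tested genes had a larger one. The value rests on 141 reads with DMSO and 357 with GSK126.

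Vegfa (chromosome 17, 46016993 to 46032369, minus strand), the main growth factor of blood vessels, had no such difference. It stood at 44.8, 43.2 and 47.3 CPM with DMSO and at 40.8, 48.1 and 39.3 CPM with GSK126. The groups overlapped: GSK126 replicate 2 was the highest of all 6 samples and GSK126 replicate 3 the lowest. The log2 fold change was -0.08 (SE 0.09), with a 95% interval from -0.29 to 0.14. With 3711 reads in all, Vegfa was among the better-counted of the 10, so the interval bounds any rise more tightly than for Car9 or Ankrd37.

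The cell-surface receptors of these peptides were partly absent. Calcrl and Ramp2, which together form an adrenomedullin receptor, had log2 fold changes of -0.41 (SE 0.18) and -0.04 (SE 0.17), and neither passed the edgeR test (adjusted p = 0.185 and 0.893). Ramp2 shares 1103 bases of exons with Vps25, so its reads are uncertain. Kdr, the main signalling receptor of Vegfa, had 0 reads in every library, and Flt1 had 1 read in all. The co-receptor Nrp1 rose from 24.6 ± 1.20 to 37.6 ± 3.07 CPM (SD, n = 3), a difference of 0.61 on the log2 scale (SE 0.09, edgeR adjusted p = 0.00714). The related co-receptor Nrp2 fell from 497 ± 11.4 to 381 ± 12.8 CPM (SD, n = 3), a difference of -0.39 on the log2 scale (SE 0.04, edgeR adjusted p = 0.0027). Among the other ligands of the Vegf family, Vegfb had a log2 fold change of 0.21 (SE 0.06, edgeR adjusted p = 0.0696) and Vegfc one of -0.22 (SE 0.10, edgeR adjusted p = 0.199).

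The carbonic anhydrases of the cell surface parted. Car9 and Car12 are membrane enzymes whose active sites face outward, where they turn carbon dioxide into bicarbonate and acid. Car9 stood at 4.41, 3.27 and 3.33 CPM with DMSO and at 5.10, 3.33 and 2.86 CPM with GSK126. The GSK126 samples held both the highest and the lowest value of the 6, and replicate 1 was the highest in each group. The log2 fold change was 0.03 (SE 0.26), with a 95% interval from -0.56 to 0.63 that leaves room for a difference in either direction at this depth. Its sign turned negative when GSK126 replicate 1 (-0.25), DMSO replicate 2 (-0.04) or DMSO replicate 3 (-0.03) was left out. Car9 (chromosome 4, 43506966 to 43513729, plus strand) shares 214 bases of exons with the antisense gene Gm12454, which had 11 to 44 reads per library against 41 to 73 for Car9. With the reads of both summed, the log2 fold change was -0.24 and did not pass (edgeR adjusted p = 0.574).

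Car12 (chromosome 9, 66713686 to 66766845, plus strand) had the largest fall of the 10. It had 27, 26 and 30 reads with DMSO and 8, 6 and 7 with GSK126, so every treated sample was below every control. The level went from 2.02 ± 0.189 to 0.485 ± 0.0753 CPM (SD, n = 3), a fold change of 0.243 (log2 -2.04, SE 0.25). The direction was seen in each library, but the whole value rests on 104 reads. In the controls 2.72% of tested genes had a lower level per length.

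Some other carbonic anhydrases had higher levels than Car9 and Car12, while several had few or no reads. Car14, a membrane form that shares 445 bases of exons with Aph1a, stood at 93.8 FPKM (the authors' level per length, mean of 6 libraries) and had a log2 fold change of -0.12 (SE 0.04, edgeR adjusted p = 0.122). The secreted form Car6 fell from 60.4 ± 4.25 to 35.8 ± 0.616 CPM (SD, n = 3), a difference of -0.75 on the log2 scale (SE 0.07, edgeR adjusted p = 0.00153). The cytosolic form Car13 rose from 70.1 ± 1.48 to 88.3 ± 6.61 CPM (SD, n = 3), a difference of 0.33 on the log2 scale (SE 0.07, edgeR adjusted p = 0.0223). The Car13 call ended without DMSO replicate 1, 2 or 3 or GSK126 replicate 2 (adjusted p from 0.0592 to 0.089 by edgeR).

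The genes with roles in mitochondria also parted, with a negative log2 fold change for Ak4 and a positive one for Higd1a. Ak4 (chromosome 4, 101419277 to 101466995, plus strand) encodes an adenylate kinase of the mitochondrial matrix, which balances adenine nucleotides. It stood at 19.1, 16.9 and 17.1 CPM with DMSO and at 4.40, 6.80 and 7.60 CPM with GSK126. All treated samples were below all controls, although they differed among themselves more than the controls did. The fold change was 0.354 (log2 -1.50, SE 0.19), and it was -1.30 on the log2 scale without GSK126 replicate 1, the lowest sample. Of its relatives, Ak3, also a matrix enzyme, rose from 148 ± 0.721 to 181 ± 4.10 CPM (SD, n = 3), a difference of 0.29 on the log2 scale (SE 0.04, edgeR adjusted p = 0.00714). Ak3 shares 430 bases of exons with Cdc37l1 on the opposite strand, so part of its reads is uncertain.

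Higd1a (chromosome 9, 121848563 to 121858362, minus strand) encodes a small protein of the inner mitochondrial membrane that supports respiratory complexes when oxygen is low. It stood at 22.5, 20.6 and 18.1 CPM with DMSO and at 34.2, 33.9 and 24.1 CPM with GSK126. The groups did not overlap, but GSK126 replicate 3 lay closer to the highest control than to the other treated samples. The log2 fold change was 0.59 (SE 0.15), the second most positive of the 10, and 0.74 without that replicate. Higd1a did not pass the edgeR test with all libraries. It did so without GSK126 replicate 3, and DESeq2 called it with all 6 libraries, which made 4 of the 10 genes higher by that tool. Its relative Higd2a, a subunit-like partner of cytochrome oxidase, had a log2 fold change of -0.16 (SE 0.08, edgeR adjusted p = 0.239).

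Of the genes of growth and stress control, Ndrg1 had samples apart between the groups and Ddit4 did not. Ndrg1 (chromosome 15, 66929318 to 66969640, minus strand), a cytosolic protein linked to differentiation and to lower spread of tumours, stood at 37.4, 35.0 and 36.1 CPM with DMSO and at 51.8, 44.3 and 50.6 CPM with GSK126. Every treated sample was above every control. The fold change was 1.35 (log2 0.43, SE 0.08). Ndrg1 no longer passed the test without DMSO replicate 1, 2 or 3 or without GSK126 replicate 1, while its log2 fold change stayed between 0.39 and 0.50.

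Ddit4 (chromosome 10, 59949669 to 59951834, minus strand) encodes REDD1, a brake on the growth-promoting kinase mTORC1 that acts through the Tsc proteins. It stood at 45.0, 38.0 and 43.8 CPM with DMSO and at 51.3, 53.6 and 45.0 CPM with GSK126. The groups met at the level of DMSO replicate 1 and GSK126 replicate 3. The log2 fold change was 0.24 (SE 0.10), with a 95% interval from 0.02 to 0.47, and 0.31 without GSK126 replicate 3. That interval is not adjusted over genes. Ddit4 did not pass the edgeR test, either with all libraries or with any 1 left out. Tsc1 had a log2 fold change of 0.29 (SE 0.06, edgeR adjusted p = 0.0297) and rose by this test, though not without any of 5 of the 6 libraries (edgeR adjusted p up to 0.106), and Tsc2, which shares 693 bases of exons with Pkd1, one of 0.01 (SE 0.08, edgeR adjusted p = 0.943). Txnip, a binding partner of REDD1 that also restrains glucose uptake, rose from 42.3 ± 2.67 to 58.5 ± 7.48 CPM (SD, n = 3), a difference of 0.47 on the log2 scale (SE 0.10, edgeR adjusted p = 0.0309). Its call ended without any 1 of the DMSO replicates or without GSK126 replicate 1 (adjusted p from 0.0625 to 0.109 by edgeR).

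Bhlhe40 (chromosome 6, 108660629 to 108666925, plus strand), also called DEC1, a repressor of transcription that takes part in the circadian clock, was the best-counted of the 10. It stood at 66.7, 68.7 and 67.9 CPM with DMSO and at 89.3, 87.6 and 98.5 CPM with GSK126. The controls differed by little and every treated sample was well above them. The fold change was 1.35 (log2 0.44, SE 0.06), nearly that of Ndrg1. Its close relative Bhlhe41 rose by less, from 267 ± 4.28 to 307 ± 8.58 CPM (SD, n = 3), a difference of 0.20 on the log2 scale (SE 0.04, edgeR adjusted p = 0.0238), and that call ended without DMSO replicate 1, 2 or 3 or GSK126 replicate 2 (adjusted p from 0.0715 to 0.0898 by edgeR). The clock activator Arntl rose from 12.6 ± 1.54 to 20.4 ± 0.369 CPM (SD, n = 3), a difference of 0.69 on the log2 scale (SE 0.10, edgeR adjusted p = 0.00872), whereas Clock, its partner, had a log2 fold change of -0.01 (SE 0.17, edgeR adjusted p = 0.984).

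Ankrd37 (chromosome 8, 45996902 to 46005707, minus strand), an ankyrin-repeat protein, is often used as a marker of HIF activity. It had 10, 11 and 7 reads with DMSO and 11, 16 and 16 with GSK126, and the groups overlapped. The log2 fold change was 0.54 (SE 0.30), with a 95% interval from -0.17 to 1.25. It shares 57 bases of exons with Ufsp2 on the opposite strand, which had 461 to 583 reads per library. It also shares 349 bases with Lrp2bp on the opposite strand, which had 10 reads in all. Some of the 71 reads may therefore belong to those genes.

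The level of each gene per length, from the FPKM values that the authors deposited, ordered the genes from Ddit4 to Car12. With DMSO, Ddit4 stood at 24.0 ± 2.12 FPKM and Bhlhe40 at 10.6 ± 0.147 FPKM (SD, n = 3). Below them came Vegfa at 5.61 ± 0.241, Ndrg1 at 4.26 ± 0.149, Higd1a at 3.55 ± 0.400, Ak4 at 2.99 ± 0.213 and Adm at 1.94 ± 0.300 FPKM (SD, n = 3). Car9 at 0.982 ± 0.174, Ankrd37 at 0.221 ± 0.0465 and Car12 at 0.175 ± 0.0157 FPKM closed the order (SD, n = 3). Among neighbours in that order, the samples of Higd1a and Ak4 and those of Ankrd37 and Car12 overlapped. Most of these genes were not abundant: 86.5% of tested genes had a lower level than Ddit4 in the controls, but 53.2% had one lower than Vegfa, 26.5% than Adm and 16.6% than Car9.

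With GSK126 the middle of the order closed up. Ndrg1 at 5.78 ± 0.481, Higd1a at 5.38 ± 1.03, Vegfa at 5.33 ± 0.589 and Adm at 4.66 ± 0.361 FPKM overlapped each with the next (SD, n = 3). Ak4, at 1.06 ± 0.277 FPKM, came down to the level of Car9, at 1.01 ± 0.321 FPKM, and their samples overlapped (SD, n = 3). Adm lay below Ak4 in every control sample and above it in every treated one.

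**Figure D4:**
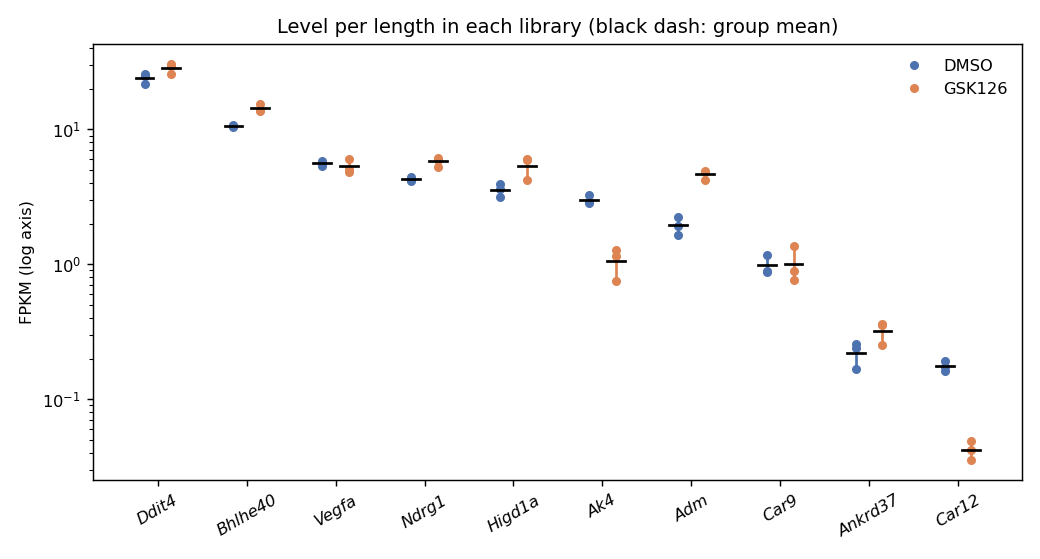
FPKM of each gene in every library on a log axis, ordered by the DMSO mean. Points are libraries, vertical lines their range and black dashes the group means. Adm and Ak4 change places between the groups, and Ddit4 and Bhlhe40 stay on top in both.

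Spread inside the groups also differed between the genes. The coefficient of variation of the CPM values over the DMSO samples was lowest for Bhlhe40, at 1.47%, and highest for Ankrd37, at 20.7%. Over the GSK126 samples it was highest for Car9, at 31.3%, and Ak4, at 26.6%. GSK126 replicate 3 did not lie to the same side throughout: it was the lowest treated sample for 5 of the 10 genes and the highest for 3. On the log2 CPM scale it differed from the mean of the other treated samples by -0.50 for Higd1a and -0.53 for Car9, but by 0.48 for Ak4. Without it the log2 fold changes of the other genes with samples apart were 1.32 for Adm, 0.38 for Bhlhe40, 0.41 for Ndrg1, -1.66 for Ak4 and -2.04 for Car12.

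Genes of the HIF system itself were higher in part. Of the 8 tested HIF factors and oxygen sensors, 4 rose, 0 fell and 4 did not pass, with a median log2 fold change of 0.27. Epas1, which encodes the second HIF alpha subunit, stood at 5.88, 6.76 and 5.93 CPM with DMSO and 12.3, 11.1 and 12.3 CPM with GSK126 (a log2 difference of 0.94, SE 0.11, edgeR adjusted p = 0.00366). Egln1, the main oxygen-sensing hydroxylase, rose from 62.3 ± 1.10 to 94.3 ± 2.16 CPM (SD, n = 3), a difference of 0.60 on the log2 scale (SE 0.05, edgeR adjusted p = 0.00101). Hif1a rose from 284 ± 1.47 to 354 ± 27.3 CPM (SD, n = 3), a log2 difference of 0.32 (SE 0.06), and Egln3 from 2.16 ± 0.295 to 4.20 ± 0.231 CPM (SD, n = 3), a log2 difference of 0.96 (SE 0.17). Egln1 and Egln3 are themselves HIF targets. Arnt had a log2 fold change of 0.22 (SE 0.06), Vhl one of 0.09 (SE 0.08), Hif1an, the asparagine hydroxylase, one of -0.03 (SE 0.05) and Egln2 one of -0.18 (SE 0.06), and none of these passed. The count of rises was 2 without DMSO replicate 1 or DMSO replicate 3. The Hif1a call ended without any 1 of the DMSO replicates (adjusted p up to 0.0707 by edgeR), and that of Egln3 without DMSO replicate 1 or 3 or GSK126 replicate 1 (adjusted p up to 0.0702 by edgeR).

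The glycolytic HIF targets that passed the test all rose, whereas the 10 genes held both rises and falls. Of 19 tested, 15 rose, 0 fell and 4 did not pass, against 11.1% of all genes that passed in either direction. Their log2 fold changes ran from -0.28 to 1.87 with a median of 0.58. The largest were those of Slc16a3, the lactate exporter (1.87, SE 0.09), Aldoc, an aldolase (1.33, SE 0.14), Pdk1, the kinase that closes the pyruvate dehydrogenase gate (1.30, SE 0.07), and Pfkl, a phosphofructokinase (0.88, SE 0.04). No glycolytic target had a fall like that of Ak4 or Car12, but the 10 genes were picked for their spread, so the contrast between the lists is a description. The glycolytic list was also chosen with earlier results of these data known. Depth differed too: the least-counted glycolytic gene, Pfkfb4, averaged 3.28 CPM, against 1.25 for Car12 and 0.835 for Ankrd37.

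Other HIF targets outside glycolysis, from a list of 48 symbols of which 36 genes were tested, rose more often than they fell. Of the 36, 20 rose, 2 fell and 14 did not pass, and the median log2 fold change was 0.29, with a range from -0.46 to 2.05. Egln3 stands on this list as well as among the sensors, and Ak3 and Bhlhe41 also count as paralogs. Bnip3, a receptor for the removal of mitochondria, had the largest rise (2.05, SE 0.08). It was followed by Loxl2, a collagen cross-linking enzyme, from 4.75 ± 0.813 to 16.0 ± 1.85 CPM (SD, n = 3). Fam162a, a mitochondrial protein, rose from 44.1 ± 2.39 to 83.7 ± 4.99 CPM and Zfp395, a zinc finger gene, from 10.3 ± 0.617 to 16.4 ± 0.870 CPM (SD, n = 3). The adjusted p-values by edgeR were 0.00134 for Loxl2, 0.0008 for Fam162a and 0.00697 for Zfp395. Fam162a shares 168 bases of exons with Wdr5b, whose log2 fold change was -0.36 (SE 0.10), so part of its reads is uncertain. The genes that fell were Cp, the iron oxidase ceruloplasmin (-0.46, SE 0.08), and Wsb1 (-0.24, SE 0.06), both named after their values were seen. Cp shares 108 bases of exons with Hps3. The Cp call ended without 1 library and that of Wsb1 without 5 of the 6 (adjusted p up to 0.055 and 0.122 by edgeR), and 0 of the 36 fell without DMSO replicate 1 and 1 without DMSO replicate 2 or 3 or GSK126 replicate 1 or 2. The promoter windows of these genes held ACGTG or GCGTG in 25 of 33 cases (75.8%) and those of the glycolytic targets in 14 of 18 (77.8%), close to the 75.0% of the genes described here.

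**Figure D5:**
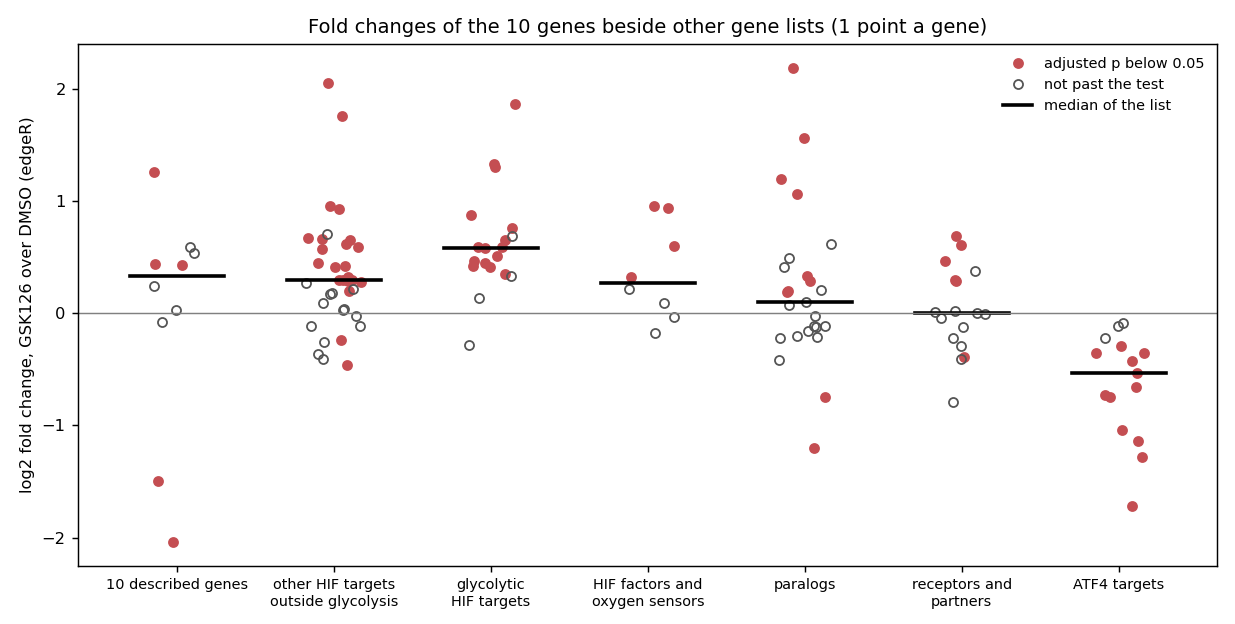
Log2 fold changes, GSK126 over DMSO, of the 10 genes and of 6 other lists. Each point is a tested gene, filled where the adjusted p (edgeR, Benjamini-Hochberg) was below 0.05, and black lines are medians. The glycolytic targets have 15 of 19 genes higher and a median of 0.58, the ATF4 targets have 12 of 15 lower and a median of -0.53, and the 10 genes reach from 1.26 to -2.04.

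Genes of the integrated stress response were mostly lower. Of 15 tested ATF4 targets, Atf4 included, 12 fell, 0 rose and 3 did not pass, with a median log2 fold change of -0.53; Vldlr is also on the list of other HIF targets. The largest falls were those of Slc7a11, the cystine importer (-1.72, SE 0.07), Trib3, a pseudokinase (-1.28, SE 0.12), Atf5, a transcription factor (-1.14, SE 0.07), and Chac1, a glutathione-degrading enzyme (-1.04, SE 0.10). Atf5 shares 82 bases of exons with Nup62 on the opposite strand, and how its reads divide is uncertain. In all, 4 of the 15 share exons with a gene of at least 10% as many reads, and 9 of the other 11 fell. Of the genes described here, Ddit4 and Vegfa are known to take input from ATF4 as well as from HIF, and their log2 fold changes were 0.24 and -0.08. Of the 7 melanoma markers 4 rose, 1 fell and 2 did not pass: Mitf, the master regulator of the pigment lineage, had a log2 fold change of 0.60 (SE 0.05, edgeR adjusted p = 0.00101), and Mlana, a melanosome protein, one of -0.28 (SE 0.06, edgeR adjusted p = 0.0245). The part of these changes in the spread of the 10 genes was not tested.

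Of the paralogs of the 10 genes as a whole, 25 were tested, 8 rose, 2 fell and 15 did not pass, with a median log2 fold change of 0.10. The count of rises fell to 1 without DMSO replicate 1 or DMSO replicate 2, to 2 without DMSO replicate 3 or GSK126 replicate 2, and to 5 without GSK126 replicate 1 or GSK126 replicate 3. The count of falls was 1 with any 1 library left out. Of 17 tested receptors and partners, 5 rose, 1 fell and 11 did not pass (median 0.00). The count of rises was 2 without DMSO replicate 2, DMSO replicate 3 or GSK126 replicate 1, and 3 without DMSO replicate 1.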

How the data were processed

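RNA from 6 samples of B16F10 cells (3 DMSO, 3 GSK126) was sequenced. The submitters' processing notes name CASAVA 1.8, HISAT2 and the build GRCm38.p4 (mm10). How reads were counted, with or without strand, and from which annotation was not given in the sources used here. Therefore reads of overlapping genes on opposite strands cannot be told apart. Raw counts of reads for each gene, as deposited by the authors (13594939 to 14713373 per library), came with the authors' FPKM values, which were proportional to the counts divided by each library's total (largest ratio between libraries 1.000017 over 11012 genes).

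Samples were grouped by title. Counts were fitted on the whole table with edgeR 4.0.16 in R 4.3.3 (filterByExpr, TMM, quasi-likelihood F test, group as the only term), with Benjamini-Hochberg adjustment over all tested genes, and the threshold was 0.05. Standard errors come from the F statistic, and 95% intervals from the t quantile of the fit. CPM uses TMM-scaled library sizes; FPKM was used for levels between genes. DESeq2 1.42.0, limma 3.58.1 (voom, and log2(FPKM + 1) with a mean FPKM of at least 0.5), upper-quartile scaling, no filter, a replicate block and leaving out each library were alternatives, and the fits were tested on simulated data. Exon overlaps are from GENCODE M21, whose positions of the 10 genes equal those in the files; genes sharing exons with a gene of at least 10% as many reads were called uncertain. Replicates differed by more than counting noise (chi-square over degrees of freedom 7.60 to 14.3).

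The 10 genes and 6 lists (other HIF targets, glycolytic targets, HIF factors, paralogs, receptors and partners, ATF4 targets) were chosen with earlier results of these data known; 1 listed symbol was not among the files' symbols. Besides the 10 genes, all tested HIF factors were named, and from each other list up to 4 changed genes with the largest change and at least 5 CPM on average. Vegfb, Vegfc, Calcrl, Ramp2, Kdr, Flt1, Car14, Higd2a, Tsc1, Tsc2, Clock, Mitf, Mlana, Cp and Wsb1 were named beside them after their values were seen, as relatives or partners, as were the marker genes Vwf and Ptprc.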

Additional observations from a re-analysis of the deposited data

How the results depend on the processing

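The direction of Adm, Bhlhe40, Ndrg1, Higd1a, Ankrd37, Ddit4, Ak4, Car12 and Vegfa was the same under every alternative that gave a value, and Car9 changed sign. With any 1 library left out, the log2 fold changes ran from 1.15 to 1.38 for Adm, -1.66 to -1.30 for Ak4, -2.15 to -1.93 for Car12, -0.17 to -0.02 for Vegfa and -0.25 to 0.20 for Car9. On the log2(FPKM + 1) scale they were 0.95 for Adm and -0.96 for Ak4, since the pseudocount shrinks changes of low genes, and Ankrd37 and Car12 were below the FPKM minimum, which left 1 of the 10 genes lower.

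With any 1 library left out, 279 to 640 genes were higher and 250 to 603 lower over all genes, 2 to 4 and 2 to 2 of the 10 genes, 2 to 4 and 0 to 0 of the HIF factors, 14 to 16 and 0 to 0 of the glycolytic targets, 14 to 20 and 0 to 2 of the other HIF targets, 1 to 5 and 1 to 1 of the paralogs, 2 to 4 and 1 to 1 of the receptors and partners, and 0 to 0 and 10 to 11 of the ATF4 targets. Without the filter on low counts, 463 genes were higher and 436 lower, with 1 lower among other HIF targets, 4 higher and 1 lower among paralogs and 3 higher among receptors and partners. DESeq2 called 4 paralogs higher and 1 lower, limma-voom 1 lower, and limma on FPKM 4 higher and 1 lower, 3 receptors and partners higher and 1 HIF factor (Egln2) lower. Without genes that share exons, an alternative chosen after seeing the data, 1 other HIF target and 1 paralog were lower.

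The labels do not say whether the replicate numbers pair the samples. Same-numbered samples had correlations of 0.067, 0.021 and -0.042 between their deviations from the group means. Samples with unlike numbers had correlations from -0.102 to 0.079. With so few samples in a group these values cannot decide whether samples were paired. With the replicate block, 230 genes were higher and 178 lower, with 2 HIF factors higher, 11 other HIF targets higher and 1 lower, 0 paralogs higher and 1 lower, and 3 receptors and partners higher, while 3 of the 10 genes were higher, with Higd1a in place of Ndrg1, and 2 lower. Among genes named from the other lists the block ended the calls of Hif1a, Egln3, Car13, Ak3 and Bhlhe41 (edgeR adjusted p = 0.0629, 0.0717, 0.0733, 0.0532 and 0.101). With ACGTG as the only motif 4 promoter windows held a match, and with only the bases before the start 6 did. Depth limits Ankrd37 (71 reads in all), Car12 (104) and Car9 (314) most. The cause of the other differences between settings was not tested.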

Other observations

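Other relatives of the 10 genes with few reads stood out, all named after their values were seen. Pgf, placental growth factor and a relative of Vegfa, had 19, 16 and 17 reads with DMSO and 29, 50 and 36 with GSK126, and rose (a log2 difference of 1.06, SE 0.26, edgeR adjusted p = 0.0429), but the call ended with any 1 library left out (adjusted p up to 0.135 by edgeR). Ndrg2, a relative of Ndrg1, had 85 reads over the DMSO samples and 206 with GSK126 (a log2 difference of 1.20, SE 0.25, edgeR adjusted p = 0.0256), and it no longer passed without any of 5 of the 6 libraries. Car4, a carbonic anhydrase anchored to the outer cell surface, had 3, 2 and 3 reads with DMSO and 11, 15 and 14 with GSK126, opposite to Car12 (a log2 difference of 2.19, SE 0.36, edgeR adjusted p = 0.0122), and it no longer passed without either of 2 libraries. Car5b, another carbonic anhydrase, also rose, on 20 reads with DMSO and 63 with GSK126 (a log2 difference of 1.56, SE 0.30, edgeR adjusted p = 0.0212). Its call ended without any of 5 of the 6 libraries. Ak5, a relative of Ak4, fell with it (a log2 difference of -1.20, SE 0.30, edgeR adjusted p = 0.0456), on 57 and 26 reads, and shares exons with the far better-counted Zzz3, and its call ended with any 1 library left out.

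Hilpda, also named after its values were seen, is a lipid droplet protein that is among the common markers of HIF activity. Like those of Vegfa and Car9, its estimate lay near 0 (a log2 difference of -0.02, SE 0.19, edgeR adjusted p = 0.966). Its 95% interval, from -0.46 to 0.43, leaves room for a difference in either direction, as does that of Car9.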
